A study of Mus musculus with 23 samples.

Results

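The leukocyte adhesion genes described here are Vcam1 and Icam1, ligands of the immunoglobulin family, and Itgb2 and Itgax, integrin chains of leukocytes. They were taken by symbol, and all 4 were present among the 3826 genes of a targeted panel read in 23 mouse mammary carcinomas. Of these tumours, 12 were treated with abemaciclib, an oral drug that blocks the cell cycle kinases CDK4 and CDK6, at 90 mg/kg by gavage every day, and 11 were controls given vehicle. In both groups the tumours had been induced with doxycycline started at 6 weeks of age, the mice were randomized once tumours had formed, and tissue was frozen after dose 12. The sources used here name neither the strain, the induced transgene and its promoter nor the age at tissue collection. The titles number tumours and name no mouse, so whether any 2 tumours share a mouse is unknown and the p-values measure the spread between tumours. Each gene was read through 1 short amplicon of about 110 bases in whole tumour RNA. In such bulk tissue fewer cells of a type and less RNA per cell cannot be told apart.

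Leukocytes leave the blood in steps. Selectins slow the cell on the vessel wall, chemokines activate its integrins, and activated integrins bind immunoglobulin-family ligands on the endothelium so that the cell arrests and crosses. ICAM-1, encoded by Icam1, is bound by the beta-2 integrins, in which the common beta chain CD18, encoded by Itgb2, pairs with 1 of several alpha chains: CD11a (Itgal) in LFA-1, CD11b (Itgam) in Mac-1 and CD11c (Itgax) in the integrin of dendritic cells and many macrophages. VCAM-1, encoded by Vcam1, is bound mainly by the integrin VLA-4, made of the chains encoded by Itga4 and Itgb1. Inflammatory cytokines induce both ligands through NF-kappaB, and interferon-gamma also induces Icam1. Neither ligand is limited to endothelium, since stromal cells, macrophages and epithelia can also make them.

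Vcam1 lies on chromosome 3 from 116109949 to 116129688 (minus strand), Icam1 on chromosome 9 from 21015985 to 21028817 (plus strand), Itgb2 on chromosome 10 from 77530252 to 77565708 (plus strand) and Itgax on chromosome 7 from 128129547 to 128150657 (plus strand), in GRCm38 coordinates (mm10) from GENCODE M21. The position of each amplicon within its transcript was unknown. RefSeq promoter sequences were matched for 2 of the 4 genes, 1 ligand and 1 integrin chain, and the 250 bases before each start site are shown because both genes had higher mean levels in the treated tumours. The Icam1 window is chr9:21015690-21015939 and the Itgax window is chr7:128129300-128129549, both on the plus strand of GRCm38.p6. Capitals mark letters that matched a searched motif.
Icam1: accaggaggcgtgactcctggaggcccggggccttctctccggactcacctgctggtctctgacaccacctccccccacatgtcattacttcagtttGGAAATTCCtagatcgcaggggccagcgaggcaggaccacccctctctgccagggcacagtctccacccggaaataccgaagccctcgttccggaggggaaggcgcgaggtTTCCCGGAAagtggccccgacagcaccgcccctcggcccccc
Itgax: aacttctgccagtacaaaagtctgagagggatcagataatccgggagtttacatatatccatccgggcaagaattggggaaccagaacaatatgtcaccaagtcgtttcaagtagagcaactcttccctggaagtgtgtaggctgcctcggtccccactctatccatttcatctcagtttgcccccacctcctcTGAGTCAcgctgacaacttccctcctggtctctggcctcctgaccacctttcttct
Motifs were searched on both strands, with letters chosen after the sequences had been seen. In Icam1 the kappaB-type letters GGAANTTCC matched at -153 to -145 from the RefSeq start site, a match held by 0.813% of 32851 RefSeq promoter windows of this length. Also in Icam1, the letters TTCNNNGAA, a form of the interferon-gamma-activated site, matched at -42 to -34, and 7.02% of all windows held such a match. In Itgax the AP-1-type letters TGANTCA matched at -56 to -50, against 6.75% of all windows. No match in either window was found for the TATA-type letters TATAAA (held by 12.4% of all windows), for the RUNX-type letters TGTGGT (14.0%) or for the PU.1-type letters GAGGAA (23.3%). None of these matches overlapped another.

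Libraries held 2756919 to 4990391 counts in abemaciclib and 3044380 to 4492736 in control tumours. Markers of mammary epithelium summed to 5852 to 19965 CPM, the reads of a gene scaled to library size, in abemaciclib and 7056 to 12949 CPM in control tumours, so the labelled tissue was recognisable in both groups. Abemaciclib tumours 3 and 10 stood apart on the third principal component, which held 8.91% of the variance, at scores of 18.1 and 18.8 against -14.2 to 8.40 in the other 21 tumours. Results are therefore also given without these 2 tumours. Most abemaciclib tumours had positive scores on this component and most control tumours negative ones. Tumours 3 and 10 thus lay at its treated end, and leaving them out trims the treated group alone. Abemaciclib tumours 3 and 10 were not the only libraries apart from the rest. Abemaciclib tumour 9 scored 34.5 on the second component (13.0% of the variance), where the next highest score was 11.7. Control tumours 7 and 8 were the lowest on the third component, at -14.0 and -14.2. Fold changes were fitted without each of these control tumours, but not without both. Abemaciclib acts on kinase activity, so the RNA levels of its targets do not directly check the labels. Whether other genes of the panel do was not examined here.

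Reads of both ligands and both integrin chains were more abundant in the abemaciclib tumours, by 1.40-fold to 1.79-fold, and none of these differences passed edgeR's quasi-likelihood test after Benjamini-Hochberg adjustment at 0.05 over the 2925 genes tested. By that rule 0 of the 4 genes were called, and 0 of 2925 genes on the panel (0%), with 392 genes at an unadjusted p under 0.05. At that unadjusted level all 4 were higher, as were 7.59% of genes. All 4 genes passed DESeq2's Wald test, which called 1.61% of genes as higher, and limma-voom with quality weights, which called 1.95% as higher. In the same edgeR test without abemaciclib tumours 3 and 10, 2 of the 4 passed, with 1.09% of genes called as higher. Because the 4 genes were chosen with these differences known, nothing is read from those shares.

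Vcam1 was measured on 81 to 605 counts per tumour. In abemaciclib tumours its lowest, median and highest levels were 50.9, 87.4 and 158 CPM, and in control tumours they were 19.4, 55.1 and 91.0 CPM. The groups overlapped: 5 abemaciclib tumours lay above every control tumour, 5 control tumours lay below every abemaciclib tumour, and 11 of 12 abemaciclib tumours were above the control median. The mean was 101 ± 31.6 CPM (SD, n = 12) in abemaciclib and 56.1 ± 23.2 CPM (SD, n = 11) in control tumours. The fitted log2 fold change was 0.84 (SE 0.224, 95% interval 0.38 to 1.30), or 1.79-fold, with an adjusted p of 0.0872 by edgeR, 0.0173 by DESeq2 and 0.0357 by limma-voom. Control tumours 7 and 8 had the lowest Vcam1 levels of all 23, at 23.7 and 19.4 CPM, and abemaciclib tumour 2 was the lowest of its group. Without abemaciclib tumour 2 the difference passed edgeR's threshold at a log2 fold change of 0.90 (adjusted p = 0.0402), in a range of adjusted p from 0.0402 to 0.147 over the 23 fits that each left out 1 tumour. It also passed without abemaciclib tumours 3 and 10, at 0.89 (adjusted p = 0.0383 by edgeR). Without control tumour 7 the log2 fold change was 0.76 (adjusted p = 0.140 by edgeR). Without control tumour 8 it was 0.74 (adjusted p = 0.125 by edgeR).

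Icam1 was measured on 116 to 450 counts per tumour. Its lowest, median and highest levels were 58.8, 75.1 and 110.5 CPM in abemaciclib tumours and 33.5, 52.8 and 78.4 CPM in control tumours. All 12 abemaciclib tumours were above the control median and 4 were above every control tumour, while 8 of 11 control tumours lay below every abemaciclib tumour. The mean was 77.5 ± 16.1 CPM (SD, n = 12) in abemaciclib and 55.3 ± 13.9 CPM (SD, n = 11) in control tumours, and Icam1 varied least of the 4 genes within both groups, with coefficients of variation of 20.8% in abemaciclib and 25.1% in control tumours. The log2 fold change was 0.49 (SE 0.137, 95% interval 0.21 to 0.77), or 1.40-fold, with an adjusted p of 0.0985 by edgeR, 0.0296 by DESeq2 and 0.0138 by limma-voom. Abemaciclib tumours 12 and 10 had the highest Icam1 levels, at 110.5 and 103 CPM. Without abemaciclib tumours 3 and 10 the log2 fold change was 0.41 (adjusted p = 0.113 by edgeR).

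Itgb2, the chain shared by all beta-2 integrins, was measured on 104 to 649 counts per tumour. Its lowest, median and highest levels were 64.0, 80.2 and 167 CPM in abemaciclib tumours and 30.4, 50.8 and 78.5 CPM in control tumours. Every abemaciclib tumour was above the control median, 6 were above every control tumour, and 8 of 11 control tumours lay below every abemaciclib tumour. The mean was 88.4 ± 28.9 CPM (SD, n = 12) in abemaciclib and 53.9 ± 16.2 CPM (SD, n = 11) in control tumours. The log2 fold change was 0.71 (SE 0.174, 95% interval 0.35 to 1.07), or 1.64-fold, with an adjusted p of 0.0651 by edgeR, 0.00860 by DESeq2 and 0.0202 by limma-voom. It passed edgeR's threshold without abemaciclib tumour 2 (adjusted p = 0.0369), without abemaciclib tumour 10 (0.0374) and without both tumours 3 and 10 (0.0236), in a range of 0.0369 to 0.119 over the 23 fits that each left out 1 tumour. Abemaciclib tumour 12 held the highest value, and without it the log2 fold change was 0.59.

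Itgax, which encodes the alpha chain CD11c, had the fewest reads of the 4, with 44 to 290 counts per tumour. Its lowest, median and highest levels were 30.4, 41.7 and 74.5 CPM in abemaciclib tumours and 12.9, 32.2 and 38.4 CPM in control tumours. Of the abemaciclib tumours, 10 of 12 were above the control median and 8 were above every control tumour, and 4 control tumours lay below every abemaciclib tumour. The mean was 45.7 ± 13.7 CPM (SD, n = 12) in abemaciclib and 29.0 ± 8.07 CPM (SD, n = 11) in control tumours. The log2 fold change was 0.65 (SE 0.179, 95% interval 0.28 to 1.02), or 1.57-fold, with an adjusted p of 0.0912 by edgeR, 0.0215 by DESeq2 and 0.0334 by limma-voom, and it was 0.67 without abemaciclib tumours 3 and 10 (adjusted p = 0.0536 by edgeR). The highest values were those of abemaciclib tumours 12 and 11, at 74.5 and 65.1 CPM, and the lowest were those of control tumours 7 and 8, at 12.9 and 18.3 CPM. Without control tumour 7 the log2 fold change was 0.58 (adjusted p = 0.140 by edgeR). Without control tumour 8 it was 0.59 (adjusted p = 0.148 by edgeR). For each of the 4 genes at least 10 of 12 abemaciclib tumours were above the control median, as were 8.51% of all genes tested. Levels were not compared between genes, since each amplicon is copied with an efficiency of its own.

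**Figure D1:**
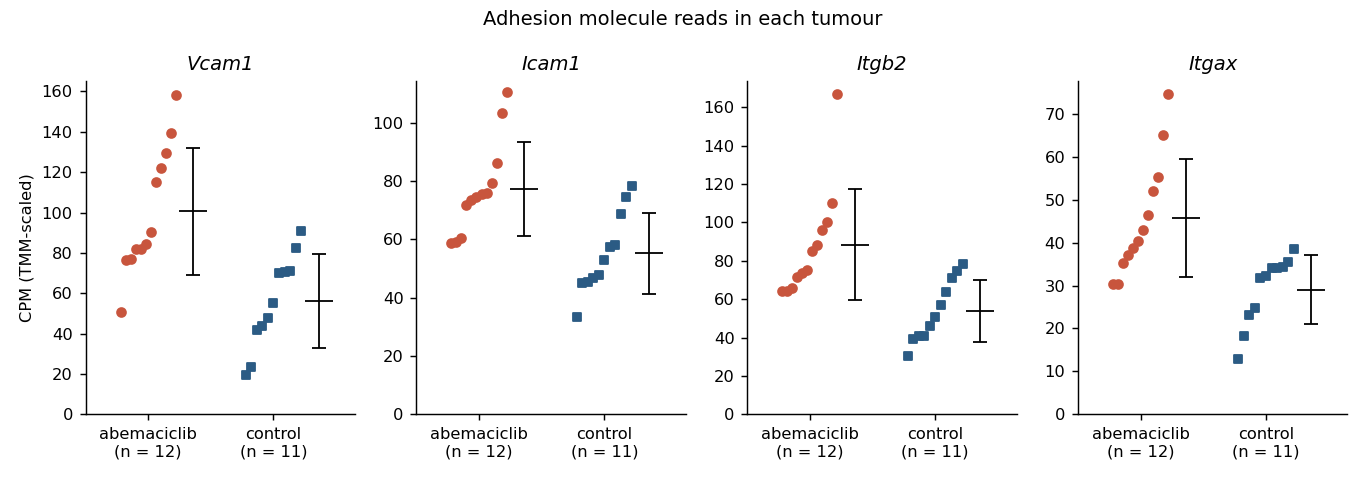
Each point is 1 tumour, with TMM-scaled CPM of 1 gene on a linear vertical axis from 0, abemaciclib tumours (n = 12, circles) left of control tumours (n = 11, squares), sorted by value; the black line and bars give the mean and SD. The groups overlap for every gene, and the control points that lie lowest for Vcam1 and Itgax belong to control tumours 7 and 8.

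The tumours did not rank alike for the 4 genes. Abemaciclib tumour 12 was the highest of its group for Icam1, Itgb2 and Itgax and the third highest for Vcam1, at 129 CPM. Abemaciclib tumour 2 was the lowest of its group for Vcam1, Icam1 and Itgax. Abemaciclib tumour 1 had the highest Vcam1 level, 158 CPM, and the next to lowest Icam1 level of its group, 59.1 CPM. Among controls, tumour 7 had the highest Icam1 level, 78.4 CPM, and the lowest Itgb2 and Itgax levels, 30.4 and 12.9 CPM.

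Across tumours of 1 group, the beta chain and its CD11c partner varied together in abemaciclib tumours, and no correlation between the ligands passed in either group. Relations were computed on log2 CPM within each group, 44 in all, with two-sided permutation tests. Itgb2 and Itgax had a Pearson's r of 0.84 in abemaciclib tumours (n = 12, p = 4.4e-04, adjusted p = 0.0194) and a Spearman's rho of 0.73 (p = 0.00862, adjusted p = 0.111), with r of 0.64 without the tumours farthest from the median, 11 and 12. In control tumours their r was 0.58 (n = 11, permutation p = 0.0602, adjusted p = 0.174) and rho 0.35 (p = 0.303, adjusted p = 0.561), and r was -0.021 without control tumours 7 and 8, so that relation rested on those 2 tumours. Vcam1 and Icam1 had an r of 0.14 in abemaciclib (n = 12, permutation p = 0.660, adjusted p = 0.764) and -0.31 in control tumours (n = 11, permutation p = 0.347, adjusted p = 0.490), with rho of 0.042 (p = 0.903, adjusted p = 0.946) and -0.34 (p = 0.314, adjusted p = 0.561). Without the 2 tumours farthest from the median, these r values were 0.071 and -0.11, and with library totals alone they were 0.057 and -0.51. Icam1 and Itgax had an r of 0.60 in abemaciclib tumours (n = 12, permutation p = 0.0390, adjusted p = 0.143; rho 0.64, p = 0.0308, adjusted p = 0.136), or 0.37 without tumours 11 and 12. In control tumours it was -0.49 (n = 11, permutation p = 0.129, adjusted p = 0.264; rho -0.40, p = 0.225, adjusted p = 0.495), or -0.27 without tumours 7 and 8. Vcam1 and Itgax had an r of 0.77 in control tumours (n = 11, permutation p = 0.00852, adjusted p = 0.0536; rho 0.71, p = 0.0177, adjusted p = 0.111), which was 0.23 without control tumours 7 and 8. In abemaciclib tumours it was 0.081 (n = 12, permutation p = 0.801, adjusted p = 0.881; rho 0.014, p = 0.974, adjusted p = 0.974) and 0.0049 without tumours 11 and 12. Itgb2 with either ligand passed in neither group. Icam1 and Itgb2 had an r of 0.51 in abemaciclib tumours, or 0.031 without tumours 11 and 12. In control tumours it was -0.29, or -0.12 without tumours 5 and 7. Vcam1 and Itgb2 had an r of 0.33 in abemaciclib tumours, or 0.35 without tumours 11 and 12. In control tumours it was 0.53, or 0.49 without tumours 5 and 7 and 0.037 without tumours 7 and 8. The differences between the groups in these correlations were not tested.

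The genes whose pattern was most like each member were found by Pearson's r of group-centred log2 CPM over the 23 tumours, given as a description from the 5 highest for each. For Vcam1 they were Nampt (r = 0.85), which makes NAD from nicotinamide, Defb1 (0.85), an epithelial defensin, Fkbp5 (0.83), a co-chaperone of steroid receptors, Lcn2 (0.83), a lipocalin that binds siderophores, and Sftpd (0.82), a collectin. No endothelial, pan-leukocyte or macrophage marker of the lists below was among them. So short a list does not show which cells made the Vcam1 reads. For Icam1 they were Dse (0.69), an epimerase of dermatan sulfate, Cetn3 (0.66), a centrin, Ncf4 (0.64), a subunit of the phagocyte NADPH oxidase, Tnfaip3 (0.64), an inhibitor of NF-kappaB signalling, and Acta2 (0.63), smooth muscle actin. For Itgb2 they were Hexa (0.84), a lysosomal hexosaminidase subunit, Syk (0.81), a kinase downstream of integrins and Fc receptors, the lysosomal protease Lgmn (0.80), Lcp2 (0.79), an adaptor of leukocytes, and Myo1f (0.79), a myosin. For Itgax they included the heparanase Hpse (0.72), Lgmn (0.71), the myeloid transcription factor Cebpa (0.70) and Gstk1 (0.69), a glutathione transferase. Lgmn was the 1 gene shared by 2 of these sets, those of Itgb2 and Itgax. Without abemaciclib tumours 3 and 10 these correlations were 0.83 to 0.87 for Vcam1, 0.61 to 0.66 for Icam1, 0.78 to 0.85 for Itgb2 and 0.69 to 0.75 for Itgax. Among controls, Nampt, Defb1, Fkbp5 and Lcn2 were lowest in tumour 8 and Sftpd in tumour 7, the 2 tumours lowest for Vcam1. These correlations were not computed without control tumours 7 and 8, so how far they rest on those tumours is unknown.

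The cells that carry these molecules were described by marker lists, and none of their tested genes passed edgeR's threshold. Endothelial markers had 17 of 18 panel genes past the filter on low counts, 13 with a positive log2 fold change and a median of 0.091, against 51.1% positive and a median of 0.0055 over all genes tested. Their summed level was 539 to 1140 CPM in abemaciclib and 640 to 1195 CPM in control tumours. Pecam1, the endothelial adhesion molecule CD31, was at 0.091 (SE 0.130, adjusted p = 0.805 by edgeR), and -0.037 with library totals alone, a scaling that put the median of all genes at -0.12. Cdh5, or VE-cadherin, was at 0.11 (SE 0.206, adjusted p = 0.863). Prox1 (0.79), Tek (0.51) and Flt4 (0.31), a lymphatic transcription factor, the angiopoietin receptor and a receptor of lymphatic growth factors, had the smallest p of the list, with adjusted p from 0.353 to 0.442 by edgeR.

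Leukocyte markers leaned higher than endothelial ones in the abemaciclib tumours, as values and with no test of that difference. Pan-leukocyte markers had 10 of 11 panel genes tested, 9 positive, with a median log2 fold change of 0.25 and a summed level of 1455 to 2551 CPM in abemaciclib and 1197 to 2022 CPM in control tumours. Ptprc, or CD45, was at 0.31 (SE 0.131, adjusted p = 0.284 by edgeR), Laptm5, a lysosomal membrane protein of leukocytes, at 0.55 and the GTPase Rac2 at 0.41. Macrophage and monocyte markers had 12 of 13 tested, 11 positive, with a median of 0.44 and a summed level of 3777 to 9991 CPM in abemaciclib and 2848 to 6740 CPM in control tumours. The scavenger receptor Msr1 was at 0.73, the Fc receptor Fcgr3 at 0.69 and the complement gene C1qa at 0.47, each past DESeq2's and limma-voom's thresholds and not edgeR's (adjusted p 0.0578 to 0.111). Without abemaciclib tumours 3 and 10, Msr1 (adjusted p = 0.0181) and Fcgr3 (0.0292) passed by edgeR and C1qa did not. The 1 negative member was Ccr2, the chemokine receptor of inflammatory monocytes, at -0.72 (SE 0.276, 95% interval -1.29 to -0.15, adjusted p = 0.214 by edgeR). Ccr2 averaged 4.31 ± 1.98 CPM (SD, n = 12) in abemaciclib and 7.12 ± 3.34 CPM (SD, n = 11) in control tumours, and 3 of 12 abemaciclib tumours were above the control median. Dendritic cell markers had 6 of 12 tested, all 6 positive, with a median of 0.50, led by Ly75, the endocytic receptor DEC-205, at 0.79 (adjusted p = 0.0578 by edgeR, and 0.0357 without abemaciclib tumours 3 and 10), with Irf8 at 0.50 and Tcf4 at 0.34. The dendritic cell genes Flt3, Xcr1 and Ccr7 were set aside by the filter, at up to 9, 7 and 14 counts per tumour. No panel gene of the endothelial, pan-leukocyte, macrophage or dendritic cell lists was at 0 in every tumour. The part of these marker levels in the levels of the 4 adhesion genes was not tested.

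Ratios between amplicons of 1 tumour do not depend on how libraries are scaled, and the adhesion genes were set against a marker of the cells usually said to carry them. The log2 ratio of Vcam1 over Pecam1 was -0.96 ± 0.582 (SD, n = 12) in abemaciclib and -1.79 ± 0.657 (SD, n = 11) in control tumours, a difference of 0.82 that exceeded either SD, and all 12 abemaciclib tumours were above the control median. Against Cdh5 the difference was 0.84, with 11 of 12 above. Icam1 over Pecam1 was -1.30 ± 0.531 in abemaciclib and -1.71 ± 0.585 in control tumours, a difference of 0.41 that was smaller than either SD, with 8 of 12 above. Itgb2 over Ptprc was 0.16 ± 0.362 in abemaciclib and -0.25 ± 0.381 in control tumours, a difference of 0.41 slightly above either SD, with 10 of 12 above. Against Laptm5, another leukocyte gene, the difference for Itgb2 was 0.23, with 8 of 12 above. Itgax over Ptprc was -0.78 ± 0.330 in abemaciclib and -1.13 ± 0.628 in control tumours, a difference of 0.35, with 11 of 12 above. Itgax over Itgb2 was -0.94 ± 0.225 in abemaciclib and -0.89 ± 0.422 in control tumours, a difference of -0.058, within the spread of both groups. Although that difference of means was negative, 9 of 12 abemaciclib tumours were above the control median. These ratios are given without a test, and leaving out abemaciclib tumours 3 and 10 gave 0.86 for Vcam1 over Pecam1, 0.34 for Icam1 over Pecam1, 0.49 for Itgb2 over Ptprc and 0.39 for Itgax over Ptprc.

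**Figure D2:**
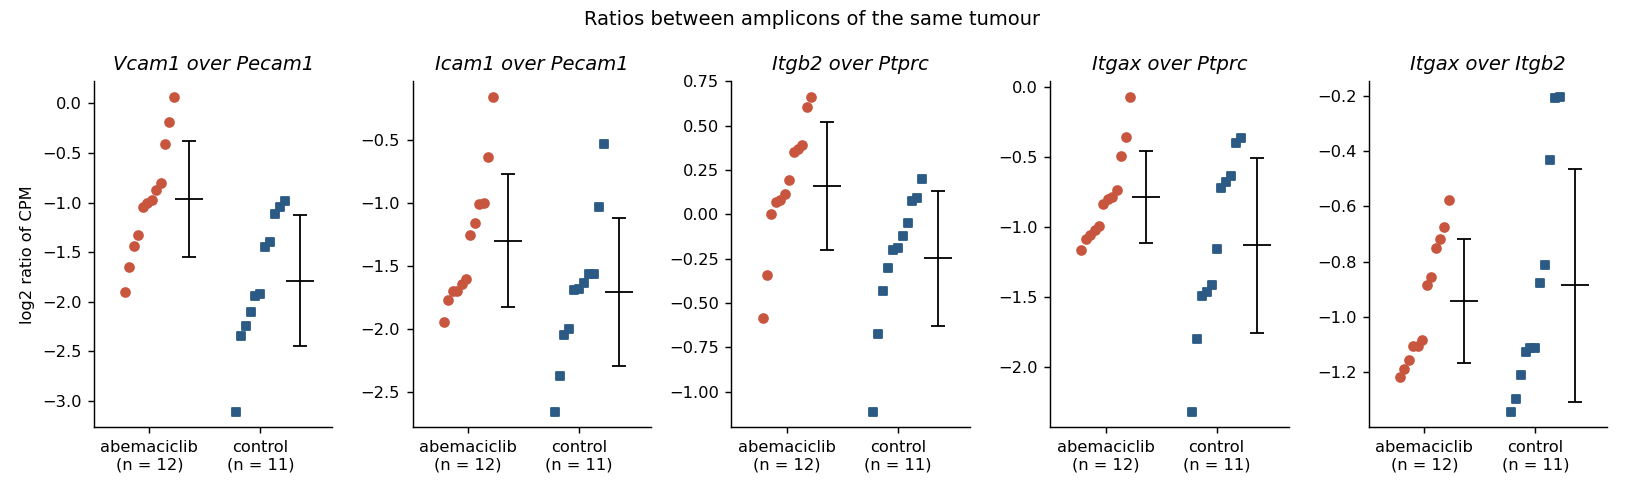
Log2 ratios of 2 amplicons in each tumour (vertical axis, a separate scale per panel), with abemaciclib tumours (n = 12, circles) left of control tumours (n = 11, squares) and the mean and SD in black. Vcam1 over Pecam1 averaged -0.96 in abemaciclib and -1.79 in control tumours, while Itgax over Itgb2 averaged -0.94 and -0.89.

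Marker scores, the mean centred log2 CPM of the tested markers of a list, went with the members to different degrees within a group. Vcam1 followed the macrophage score in abemaciclib tumours with an r of 0.79 (n = 12, permutation p = 0.00249, adjusted p = 0.0334; rho 0.75, p = 0.00668, adjusted p = 0.111), and r was 0.65 without tumours 2 and 3. In control tumours that r was 0.63 (n = 11, permutation p = 0.0367, adjusted p = 0.143; rho 0.58, p = 0.0648, adjusted p = 0.219), or 0.59 without tumours 6 and 9 and 0.30 without tumours 7 and 8. Its r with the endothelial score was 0.021 in abemaciclib (n = 12, permutation p = 0.948, adjusted p = 0.955; rho 0.084, p = 0.798, adjusted p = 0.923), or 0.18 without tumours 10 and 12. In control tumours that r was 0.79 (n = 11, permutation p = 0.00304, adjusted p = 0.0334; rho 0.68, p = 0.0242, adjusted p = 0.119), or 0.68 without tumours 7 and 11. Leaving out control tumours 7 and 8 instead gave 0.47. Itgb2 followed the pan-leukocyte score in abemaciclib tumours with an r of 0.78 (n = 12, permutation p = 0.00276, adjusted p = 0.0334; rho 0.66, p = 0.0233, adjusted p = 0.119), or 0.80 without tumours 9 and 12. In control tumours it was 0.71 (n = 11, permutation p = 0.0157, adjusted p = 0.0768; rho 0.72, p = 0.0162, adjusted p = 0.111), or 0.51 without tumours 5 and 9 and 0.86 without tumours 7 and 8. Icam1 and the endothelial score had an r of -0.71 in abemaciclib tumours (n = 12, permutation p = 0.00995, adjusted p = 0.0547; rho -0.62, p = 0.0343, adjusted p = 0.137), which was -0.24 without tumours 10 and 12. In control tumours it was -0.31 (n = 11, permutation p = 0.357, adjusted p = 0.490; rho -0.24, p = 0.487, adjusted p = 0.766), or 0.037 without tumours 7 and 11. Icam1 followed the fibroblast and pericyte score in control tumours with an r of 0.77 (n = 11, permutation p = 0.00504, adjusted p = 0.0444; rho 0.76, p = 0.00865, adjusted p = 0.111), or 0.69 without tumours 1 and 3. In abemaciclib tumours that r was -0.32 (n = 12, permutation p = 0.310, adjusted p = 0.487; rho -0.12, p = 0.717, adjusted p = 0.892), or 0.21 without tumours 5 and 12. Some of these values depended on scaling. With library totals alone, r of Vcam1 with the macrophage score was 0.62 in abemaciclib and 0.21 in control tumours. With the endothelial score it was -0.28 and 0.58. Itgb2 and the pan-leukocyte score kept 0.78 and 0.71 by that scaling, and Itgax had 0.68 and -0.040 with that score. Icam1 had -0.36 and -0.26 with the endothelial score, and 0.11 and 0.83 with the fibroblast and pericyte score. Of the 44 relations, 5 passed after adjustment by Pearson's r and 0 by Spearman's rho, and the differences between groups were not tested.

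**Figure D3:**
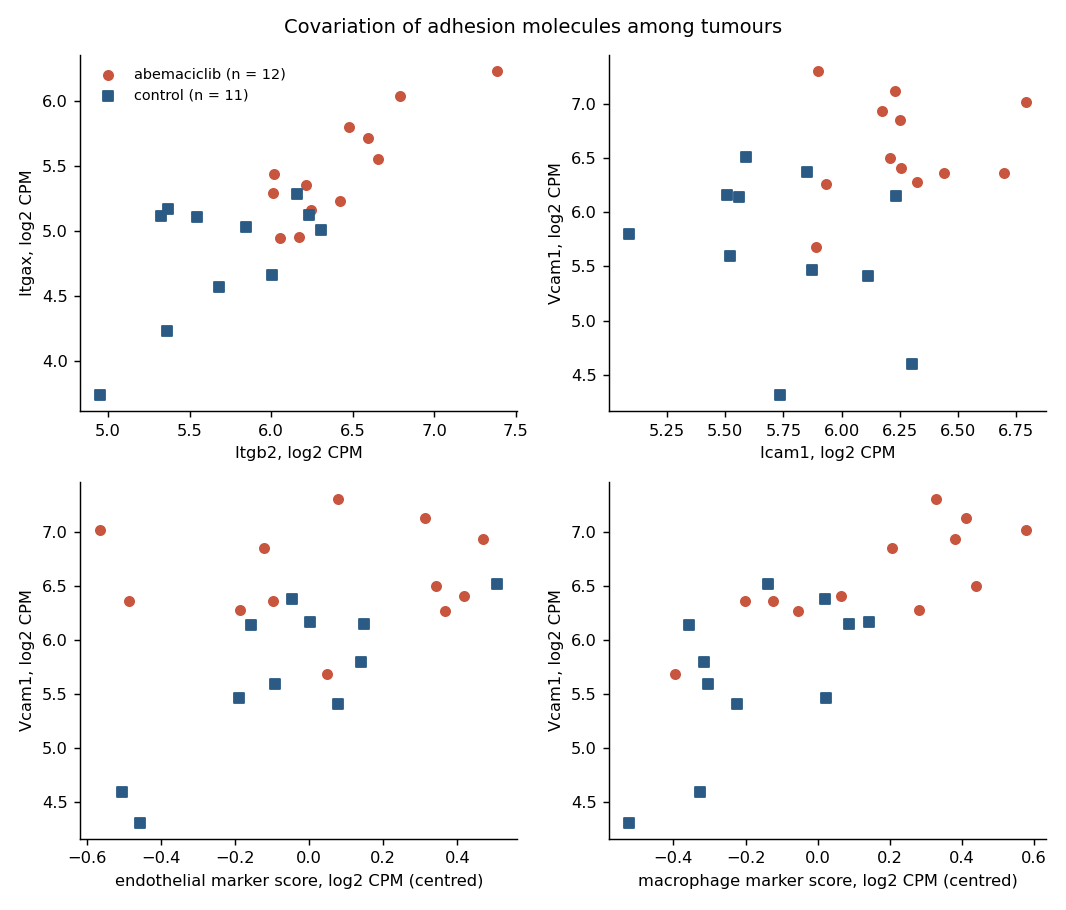
Each point is 1 tumour (abemaciclib circles, n = 12; control squares, n = 11), on log2 CPM axes or, in the lower panels, with a marker score on the horizontal axis in centred log2 CPM. Itgax follows Itgb2 in abemaciclib tumours (r = 0.84), Vcam1 against Icam1 has an r of 0.14 in abemaciclib and -0.31 in control tumours, and Vcam1 follows the macrophage score in abemaciclib tumours (r = 0.79).

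The rest of the cascade was read from gene lists, in which no tested gene passed edgeR's threshold over all genes. Among immunoglobulin-family ligands and junction molecules, 7 of 8 panel genes were tested, 6 of them positive, with a median log2 fold change of 0.13. Beside the 2 ligands, Alcam, a ligand of CD6, was at 0.46 (SE 0.200, adjusted p = 0.299 by edgeR), and 10 abemaciclib tumours exceeded the median of the controls. Selectins and their ligands had 7 of 9 tested, 4 of them positive, with a median of 0.0035. Selp, the P-selectin of platelets and endothelium, was at 0.87 (SE 0.475, adjusted p = 0.435), and the hyaluronan receptor Cd44 was at 0.79 (SE 0.356, adjusted p = 0.317) with 7 of 12 abemaciclib tumours above the control median, or 0.39 without abemaciclib tumours 3 and 10. Glg1, a ligand of E-selectin, was at 0.15. Sele, the cytokine-induced E-selectin of endothelium, had 0 to 27 counts per tumour and was set aside by the filter.

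All 13 integrin chains on the panel were tested, 9 of them positive, with a median log2 fold change of 0.17. Among partners of Itgb2, the LFA-1 chain Itgal was at 0.60 (SE 0.205, adjusted p = 0.179 by edgeR), with 17.1 CPM on average in abemaciclib and 11.3 CPM in control tumours and 7 abemaciclib tumours above every control tumour. The Mac-1 chain Itgam was at 0.17 (SE 0.139, 95% interval -0.11 to 0.46, adjusted p = 0.629), with 6 of 12 abemaciclib tumours above the control median. The VLA-4 chains, partners of VCAM-1, were at 0.27 for Itga4 (SE 0.184, adjusted p = 0.565) and -0.019 for Itgb1 (SE 0.119, adjusted p = 0.968). Genes of integrin activation and beta-2 integrin signalling had 15 of 16 tested, 13 positive, with a median of 0.31. Fcer1g, an adaptor of Fc receptors and integrins, was at 0.44 (SE 0.132), the integrin-associated protein Cd47 at 0.28 (SE 0.085) and the focal adhesion kinase relative Ptk2b at 0.41 (SE 0.146). Their adjusted p by edgeR were 0.127, 0.127 and 0.196, and Cd47 passed DESeq2 and limma-voom (adjusted p = 0.0484 and 0.0244). Fcer1g passed limma-voom (adjusted p = 0.0170) and edgeR without abemaciclib tumours 3 and 10 (0.0313).

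**Figure D4:**
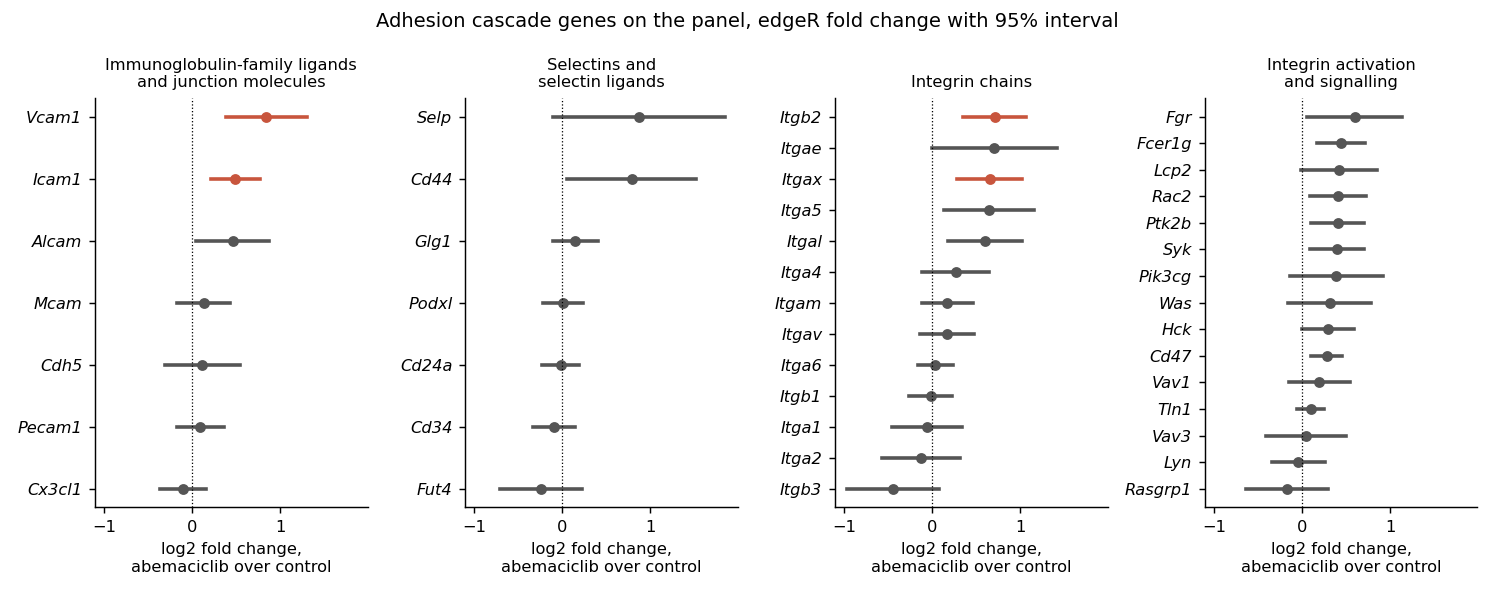
Log2 fold changes of abemaciclib over control (horizontal axis) with 95% intervals from edgeR for every tested gene of 4 adhesion lists, the 4 genes described here in red and the others in grey, over 12 abemaciclib and 11 control tumours. Vcam1 (0.84) and Icam1 (0.49) lie above Pecam1 (0.091) and Cdh5 (0.11), and Itgb2 (0.71), Itgax (0.65) and Itgal (0.60) lie above Itgam (0.17).

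Inducers of the ligands and components of NF-kappaB had 25 of 29 panel genes tested, 19 positive, with a median log2 fold change of 0.12. The tumour necrosis factor receptor gene Tnfrsf1b was at 0.40 (SE 0.136), past limma-voom's threshold alone (adjusted p = 0.0130), and the kinase Chuk of the NF-kappaB pathway was at -0.23 (SE 0.116, adjusted p = 0.395 by edgeR). Tnfaip3, a target and inhibitor of NF-kappaB, was at 0.082 (SE 0.193), at -0.059 with library totals alone and at -0.0099 without abemaciclib tumours 3 and 10. Among cytokine genes that were tested, Tnf was at 0.12, Ltb at 0.23 and Lta at -0.048 (adjusted p from 0.752 to 0.970 by edgeR). Il1b, at 25 to 264 counts per tumour, was at -0.54 (adjusted p = 0.436 by edgeR), the opposite sign to both ligands. The cytokine genes Ifng, Il4 and Il1a were set aside by the filter, at 0 to 3, 0 to 1 and 0 to 35 counts per tumour.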

How the data were processed

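RNA of 23 mouse mammary carcinomas was read with a targeted panel of 3826 genes, 1 short amplicon of about 110 bases per gene, per the labels' protocols. The authors deposited raw read counts per gene. The submitters' processing notes name build mm10; aligner and counter: not given in the sources used here. Counts were compared with edgeR 4.0.16 in R 4.3.3 (TMM scaling, filterByExpr, quasi-likelihood test, Benjamini-Hochberg adjustment over 2925 tested genes, threshold 0.05). The filter set aside 901 genes. DESeq2 1.42.0 and limma 3.58.1 (voom with quality weights) were alternatives among 12, beside 23 fits that each left out 1 tumour. Levels are TMM-scaled CPM, and correlations use log2 CPM with a prior count of 2 and 100000 permutations, two-sided. Tested on simulated data for this comparison over 2917 genes, the fit called 41 of 67 genes changed 1.5-fold, 57 of 65 changed 2-fold, 66 of 66 changed 4-fold and 4 of 2719 unchanged genes. No 2 libraries of 253 pairs agreed within sampling noise.

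The 4 genes and the 14 gene lists were chosen with earlier results of these data known. Named beside the members were up to 3 genes of each list with the smallest edgeR p, a set of 11 adhesion and marker genes whatever their result, and the 5 genes most like each member. Of those 11, Icam2 and Cd68 are not analysed here. Some genes that this rule names are not reported here. Other genes named in the text were chosen after their values were seen. Sequences are from RefSeq (GRCm38.p6) and gene positions from GENCODE M21 (GRCm38).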

Additional observations from a re-analysis of the deposited data

How the results depend on the processing

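Under the 12 alternatives the 4 adhesion genes were higher in the abemaciclib tumours, as they did in the 23 fits that each left out 1 tumour. DESeq2's Wald test brought all 4 past the threshold, at log2 fold changes of 0.85 for Vcam1, 0.50 for Icam1, 0.72 for Itgb2 and 0.66 for Itgax, as did limma-voom with quality weights, at 0.72, 0.53, 0.62 and 0.57 in the same order. Without abemaciclib tumours 3 and 10, Vcam1 (0.89) and Itgb2 (0.77) passed by edgeR. Leaving out 1 tumour gave 0.74 to 0.93 for Vcam1, 0.43 to 0.55 for Icam1, 0.59 to 0.78 for Itgb2 and 0.57 to 0.70 for Itgax. Without abemaciclib tumour 9 the members were at 0.86, 0.49, 0.71 and 0.63 in that order, and none passed by edgeR. Over all genes 0 were called by edgeR (392 at an unadjusted p under 0.05), 1 with library totals alone, 60 by DESeq2, 127 by limma-voom and 93 without abemaciclib tumours 3 and 10, and 0 to 47 when 1 tumour was left out, with 47 without abemaciclib tumour 10, 30 without abemaciclib tumour 2, 10 without abemaciclib tumour 3 and 9 without control tumour 6. Of 149 list genes, 0 were called by edgeR, 11 by DESeq2, 12 by limma-voom, 6 without abemaciclib tumours 3 and 10, and 0 to 5 when 1 tumour was left out. Library totals alone put the median of all genes at -0.12, and relative to it the members were at 0.84 (Vcam1), 0.48 (Icam1), 0.70 (Itgb2) and 0.68 (Itgax). Signs turned for 8 of 58 other named genes: Pecam1 (-0.037), Fkbp5 (-0.054), Tnfaip3 (-0.059) and Acta2 (-0.012) with library totals, Itgb1 (0.026), Cetn3 (0.0025), Krt14 (-0.36) and Krt5 (-0.17) by limma-voom, and Krt14 (-0.71), Krt5 (-0.77) and Tnfaip3 (-0.0099) without abemaciclib tumours 3 and 10. The cause of these changes was not tested. The labels do not say whether the shared tumour numbers pair the tumours. Of 11 same-numbered pairs, 5 had a correlation of deviations over 0.1, and in 2 pairs the shared number gave the highest correlation. These counts have no test beside them and cannot exclude that some pairs belong together. With the number as a replicate block the members were at 0.86, 0.45, 0.63 and 0.59 (Vcam1, Icam1, Itgb2, Itgax; edgeR adjusted p 0.159 to 0.189) and 0 genes were called. The correlations without control tumours 7 and 8 were chosen after seeing the data.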

Other observations

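Lymphocyte reads were few. Of 24 T, NK and B cell markers on the panel, 9 passed the filter on low counts, with a median log2 fold change of 0.31 (0.016 without abemaciclib tumours 3 and 10). Their summed level was 42.7 to 140 CPM in abemaciclib and 41.7 to 113 CPM in control tumours, and 6 of 12 abemaciclib tumours were above the control median. Cd4 was at 0.40 and Cd22, an inhibitory co-receptor of B cells, at 0.58, with adjusted p of 0.565 and 0.327 by edgeR. Gzma, a granzyme of cytotoxic lymphocytes, had 0 counts in all 23 tumours, which allows up to 0.601 to 1.09 CPM per library at a floor of 3 counts.

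Neutrophil markers had 8 of 12 panel genes tested, 6 of them positive, with a median of 0.43 and S100a8, an alarmin of neutrophils and monocytes, at 0.49 (adjusted p = 0.259 by edgeR). Lcn2 dominated their sum, with a mean of 39378 CPM in abemaciclib and 26726 CPM in control tumours, and is also made by epithelium. Lcn2 was among the 5 genes whose pattern was most like that of Vcam1. Fibroblast and pericyte markers had 16 of 17 tested, 13 positive, with a median of 0.31, and Tagln, an actin-binding protein of smooth muscle, at 0.44 (adjusted p = 0.185 by edgeR). Mammary epithelial markers had 13 of 14 tested, 5 positive, with a median of -0.030. The basal keratins Krt14 and Krt5 were at 0.91 (SE 0.692) and 0.78 (SE 0.751) over all tumours, but at -0.71 and -0.77 without abemaciclib tumours 3 and 10 and at -0.36 and -0.17 by limma-voom.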
